A study of Mus musculus with 4 samples.

Results

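The ISG15 conjugation system is described here by 5 mouse genes, chosen by name: Isg15 (the modifier), Uba7 (the activating enzyme, E1), Ube2l6 (the conjugating enzyme, E2), Herc6 (the ligase, E3) and Usp18 (the protease). All 5 were present once in the DC table and once in the T cell table, each of which lists 21959 genes. RNA had been sequenced from dendritic cells (DCs) and CD3+ T cells isolated from tumours of MC38, a mouse colon carcinoma line, 72 h after the second treatment. In each cell type 1 group received PBS and 1 group received X-Ray+O-IMDQ, named by the series as a prodrug that radiotherapy activates. All 4 groups therefore carried MC38 tumours, no group received X-ray or O-IMDQ alone, and each group holds 1 library. The strain, age, X-ray dose and drug dose of the mice, the markers used to isolate DCs and the number of mice behind a library are not given in the sources used here.

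ISG15 is a protein of tandem ubiquitin-like folds that interferon induces and that cells attach to lysines of other proteins, a reaction called ISGylation. UBA7 activates the modifier, UBE2L6 carries it, and HERC6 is the main ligase that transfers it in mouse cells, where human cells use HERC5. USP18 cuts ISG15 off its targets and, apart from this, binds the interferon receptor subunit IFNAR2 and dampens type I interferon signalling. All 5 genes are themselves interferon-stimulated, and ISG15 is also released from cells and acts on lymphocytes through the integrin LFA-1.

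In T cells all 5 genes were at least 2-fold higher in the treated library than in the PBS library, from 2.06-fold for Uba7 to 22.3-fold for Usp18. By the rule given below, 18.3% of all genes tested were called higher there. Uba7 lay close to the threshold and lost its call under upper-quartile scaling. In DCs they did not move together. Herc6 was 4.09-fold higher in the treated DC library and Ube2l6 was 5.43-fold lower, while Isg15, Uba7 and Usp18 differed from the PBS library by less than 2-fold. In DCs 30.2% of all genes tested were called higher and 41.8% lower. Read against genes of its own length, Ube2l6 had a log2 ratio of -1.19. In both cell types Usp18 was higher relative to Isg15 in the treated library. Ube2l6 was lower relative to Isg15 in both, but in DCs this turned, to 1.32-fold higher, when each gene was read against genes of its own length.

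Total read counts were between 14056428 and 23797357 per library, and between 9763 and 12051 genes had at least 1 count. Each comparison is of 1 library with 1 library, so no p-value is given, and whether groups overlap cannot be said. A ratio is of counts scaled by TMM (a trimmed mean of gene ratios), with an exact conditional binomial 95% interval, the counting interval. A gene was tested if either library reached 20 counts. It was called if the libraries were 2-fold or more apart and the interval excluded no change. Reads from PCR were not collapsed by molecular identifiers, so the intervals cover counting error only and not the spread between mice. In bulk RNA, fewer cells of a type and less RNA per cell cannot be told apart. FPKM is the count scaled to the listed gene length and to all counted reads of its library, and it is the scale on which levels of different genes are compared.

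Markers of the labelled cell types were read in the same libraries. The 10 T cell markers summed to 14784 CPM (counts scaled to the total count of a library) in PBS T cells and 16113 CPM in treated T cells, with none at 0, against 113.9 and 95.7 CPM in the DC libraries. Of the T cell markers 3 were at 0 in PBS DCs and 6 in treated DCs, with Cd3e, Cd247 and Cd4 at 0 in both. The others did not move together in DCs. With treatment Lck went from 607 counts to 0, Cd3g from 576 to 1, Cd2 from 574 to 0 and Cd8a from 1 to 0. Cd8b1 went from 517 to 254, while Cd3d went from 434 to 812 and Cd5 from 1 to 278. The 5 NK cell markers summed to 31.0 CPM in PBS DCs and 42.9 CPM in treated DCs, with 4 and 1 at 0. Gzmb went from 0 to 391 counts in DCs, Eomes from 0 to 135 and Klra4 from 738 to 76. The 10 DC markers summed to 60848 CPM in PBS DCs and 8226 CPM in treated DCs, mostly from H2-Ab1 and Cd74, and Batf3, a transcription factor of conventional DCs, went from 479 counts to 0. Cd209a and Ccr7 were also lower in treated DCs. Other markers of the list went the other way, with Clec9a at 6.47 CPM with PBS and 67.7 CPM with treatment. Itgax was at 167 and 252 CPM and Xcr1 at 8.95 and 10.8 CPM. The DC-lineage genes Flt3 and Zbtb46 had only 16 and 9 counts in PBS DCs and 69 and 57 in treated DCs. The 7 macrophage markers summed to 5797 CPM in PBS DCs and 1372 CPM in treated DCs, with none at 0. The C1q genes and Apoe were lower in the treated DC library, while Adgre1 was at 57.0 and 66.1 CPM, Csf1r at 215.6 and 245.7 CPM and Mrc1 at 106.7 and 107.6 CPM. The 5 monocyte markers summed to 1069 CPM in PBS DCs and 1399 CPM in treated DCs, with none at 0. Plac8 (67.3 and 348.7 CPM), Ccr2 and Fn1 were higher with treatment, and Ly6c2 and Chil3 (78.1 and 16.6 CPM) lower. The 5 neutrophil markers summed to 22.1 and 91.7 CPM, with 3 and 2 at 0. S100a8 had 90 and 1009 counts and Cxcr2 0 and 246, while Csf3r had 436 and 34. S100a9 and Ly6g were at 0 in both DC libraries. In the treated DC library 942 genes were at 0 out of the 7857 that reached 100 counts with PBS. The part of these differences in the DC results was not tested.

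Isg15 (ENSMUSG00000035692, chromosome 4, 156283912 to 156285253 on the minus strand, GRCm39) is the short gene of the group, with a listed length of 703 bases. Its RefSeq promoter is shown because it is the only one of the 4 member promoters matched (Isg15, Uba7, Ube2l6 and Herc6) that holds the core of the interferon-stimulated response element, a DNA element bound by IRF proteins. The core was searched as GAAANNGAAA on both strands, in windows from 250 bases before to 50 bases after each transcription start. It is present in 3.44% of 32851 such windows, and in 14 of 31 other interferon-stimulated genes that have a window. The 250 bases before the start of each gene are printed 5′ to 3′ on the gene's strand, from build GRCm38.p6, with matches in capitals. Ube2l6 and Herc6 are shown beside Isg15 because they were the DC genes called in opposite directions.
Isg15, chr4:156200819-156201068, minus strand: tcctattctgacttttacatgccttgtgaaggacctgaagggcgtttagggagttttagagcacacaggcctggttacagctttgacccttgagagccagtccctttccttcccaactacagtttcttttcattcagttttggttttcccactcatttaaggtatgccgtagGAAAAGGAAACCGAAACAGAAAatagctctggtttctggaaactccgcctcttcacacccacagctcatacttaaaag
Ube2l6, chr2:84798578-84798827, plus strand: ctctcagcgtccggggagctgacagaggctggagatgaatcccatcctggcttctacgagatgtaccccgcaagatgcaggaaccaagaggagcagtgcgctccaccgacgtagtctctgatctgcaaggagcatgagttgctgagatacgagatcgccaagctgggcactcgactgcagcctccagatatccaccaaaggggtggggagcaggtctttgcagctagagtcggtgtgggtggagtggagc
Herc6, chr6:57580742-57580991, plus strand: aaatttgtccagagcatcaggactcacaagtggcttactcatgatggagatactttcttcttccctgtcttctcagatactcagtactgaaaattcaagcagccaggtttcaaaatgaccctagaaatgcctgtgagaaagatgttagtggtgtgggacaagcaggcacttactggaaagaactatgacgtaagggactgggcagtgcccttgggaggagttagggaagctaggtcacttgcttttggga
In Isg15 there were 3 overlapping matches, GAAAAGGAAA from base -78 to -69, GAAACCGAAA from -72 to -63 and GAAACAGAAA from -66 to -57, counted from the transcription start. A match is a description of letters, and its absence from a window says nothing of the factors that bind there.

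The Isg15 level was 80.9 FPKM (1354 counts) in PBS DCs, 41.8 FPKM (413 counts) in treated DCs, 38.0 FPKM (498 counts) in PBS T cells and 163 FPKM (2121 counts) in treated T cells. The treated T cell library was the highest, and the Poisson intervals of treated DCs (37.9 to 46.0 FPKM) and PBS T cells (34.7 to 41.5 FPKM) overlapped. These intervals do not cover the choice of scaling. With CPM scaled by TMM over the 4 libraries, treated DCs were at 36.3 and PBS T cells at 22.2. In T cells Isg15 was 4.22-fold higher in the treated library (counting interval 3.83 to 4.66). In DCs its log2 ratio was -0.89, with an interval from -1.06 to -0.73, which was not called.

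Uba7 (ENSMUSG00000032596, chromosome 9, 107852704 to 107861259 on the plus strand) encodes the E1, the enzyme that is dedicated to ISG15. Its level was 5.97 FPKM (950 counts) in PBS DCs, 3.56 FPKM (335 counts) in treated DCs, 8.91 FPKM (1112 counts) in PBS T cells and 18.7 FPKM (2308 counts) in treated T cells. Both T cell libraries lay above both DC libraries on this scale. In T cells Uba7 was 2.06-fold higher with treatment, with an interval from 1.91 to 2.21, close to the 2-fold threshold. Under upper-quartile scaling its log2 ratio in T cells was 0.94 and the call was lost. In DCs its log2 ratio was -0.68, with an interval from -0.87 to -0.50, and it was not called.

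Ube2l6 (ENSMUSG00000027078, chromosome 2, 84629172 to 84640679 on the plus strand) encodes the E2. Its level was 92.0 FPKM (4368 counts) in PBS DCs, 16.3 FPKM (456 counts) in treated DCs, 41.0 FPKM (1527 counts) in PBS T cells and 116 FPKM (4282 counts) in treated T cells. In FPKM the treated DC library was the lowest of the 4 and the treated T cell library the highest. With CPM scaled by TMM over the 4 libraries, treated DCs were still the lowest. PBS DCs were then the highest, at 219.8 against 189.0 in treated T cells. In DCs Ube2l6 was 5.43-fold lower with treatment, with an interval from 4.93 to 5.99, and in T cells 2.78-fold higher (2.62 to 2.95).

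Herc6 (ENSMUSG00000029798, chromosome 6, 57557985 to 57641617 on the plus strand) encodes the E3 and is the longest of the 5 genes, at 9292 bases. Its level was 0.701 FPKM (155 counts) in PBS DCs, 2.75 FPKM (359 counts) in treated DCs, 0.231 FPKM (40 counts) in PBS T cells and 1.40 FPKM (240 counts) in treated T cells. It was the lowest of the 5 genes in every library, and its order over the libraries differs from that of the other members in that treated DCs were the highest. Herc6 was 4.09-fold higher in treated DCs, with an interval from 3.38 to 4.97, and 5.95-fold higher in treated T cells, with a wider interval from 4.24 to 8.53 that rests on the 40 counts with PBS.

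Usp18 (ENSMUSG00000030107, chromosome 6, 121222865 to 121247876 on the plus strand) encodes the protease and is not a neighbour of Herc6 on that chromosome. Its level was 12.4 FPKM (826 counts) in PBS DCs, 20.7 FPKM (811 counts) in treated DCs, 1.61 FPKM (84 counts) in PBS T cells and 36.7 FPKM (1891 counts) in treated T cells. PBS T cells stood far below the other 3 libraries. In T cells Usp18 was 22.3-fold higher with treatment, with an interval from 17.9 to 28.1, more than any other member. In DCs its log2 ratio was 0.79, with an interval from 0.65 to 0.93, below the 2-fold threshold.

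**Figure D1:**
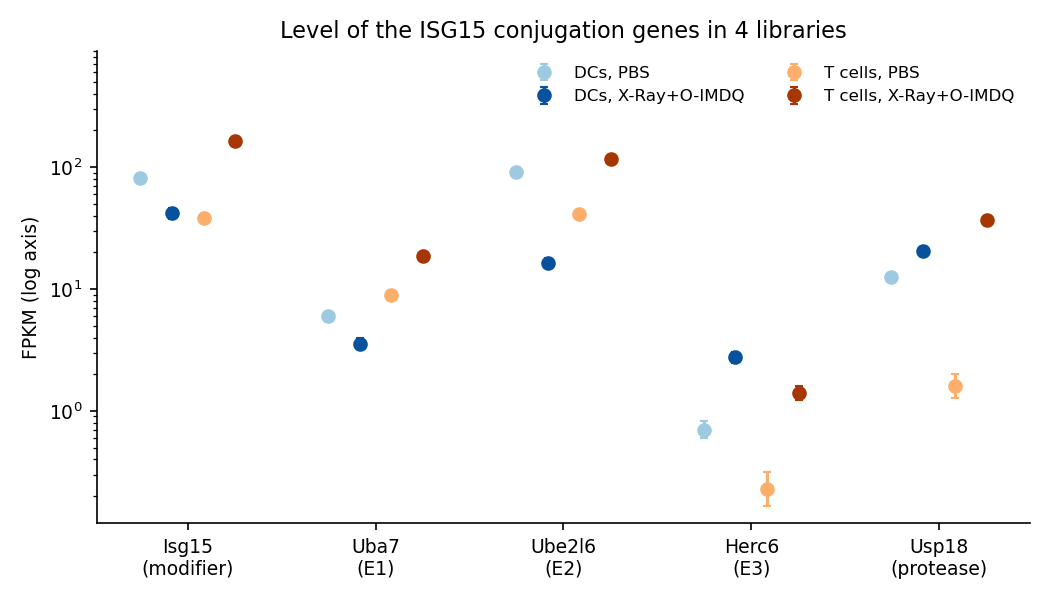
FPKM (log axis) of the modifier, E1, E2, E3 and protease genes, 1 point per library with its Poisson 95% interval for counting error. In FPKM treated T cells are the highest library for Isg15, Uba7, Ube2l6 and Usp18, at 163, 18.7, 116 and 36.7. Herc6 is highest in treated DCs at 2.75 FPKM. With TMM over the 4 libraries Ube2l6 is highest in PBS DCs. For Usp18 the order of treated DCs and treated T cells changes with the scaling.

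The comparison of treated with PBS T cells asks how T cells of the tumour responded to the treatment. In it 5 of the 5 genes were called higher, with a median log2 ratio of 2.08. Of the 11058 genes tested, 18.3% were called higher and 25.4% lower, with a median log2 ratio of -0.07. Among the genes tested, the members lay between percentile 82.3 (Uba7) and 97.2 (Usp18) of the log2 ratios. At a 4-fold threshold Isg15, Herc6 and Usp18 were called.

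The comparison of treated with PBS DCs asks the same of dendritic cells. Here 1 of the 5 genes was called higher (Herc6), 1 lower (Ube2l6) and 3 neither, with a median log2 ratio of -0.68. Of the 10316 genes tested, 30.2% were called higher and 41.8% lower, with a median of -0.36, and neither count of members exceeds its background share. Centred on that median, Usp18 was also called higher, at a log2 ratio of 1.15. With this centring 35.1% of all genes were called higher and 37.9% lower. In these libraries genes of different length had different median ratios. The 148 tested genes whose length was within 25% of that of Isg15, as a ratio in either direction, had a median log2 ratio of 0.69, and the 1254 near the length of Ube2l6 had one of -1.25. Relative to genes of its own length, Isg15 had a log2 ratio of -1.59 and was called lower, Usp18 had one of 1.87 and was called higher, and Ube2l6 and Herc6 kept their calls at -1.19 and 1.74. The shares of all genes called in this way are not given here, so these calls have no background.

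**Figure D2:**
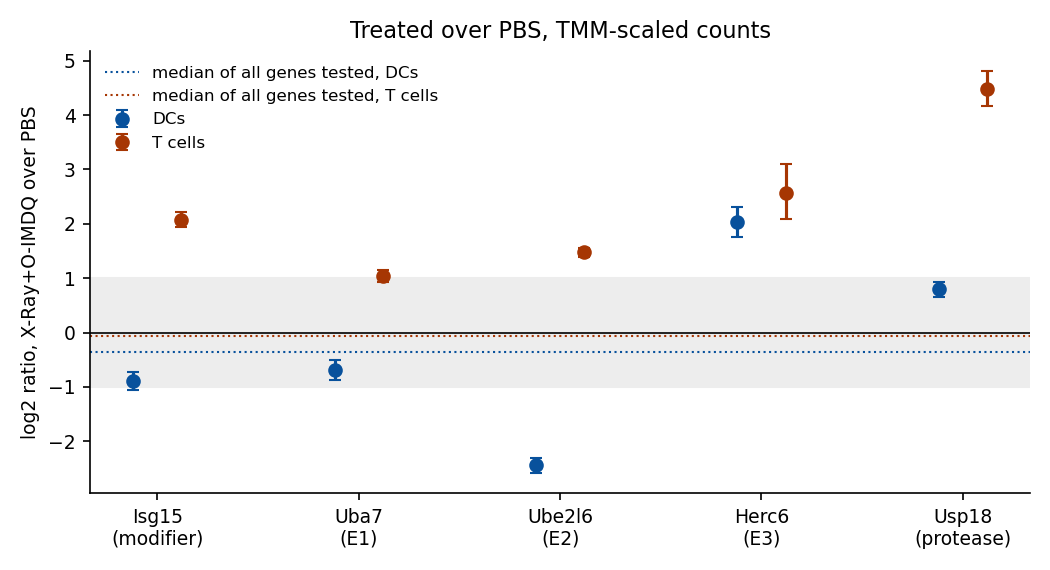
The log2 ratio of treated over PBS (y axis) for each gene in DCs and T cells, with 95% counting intervals; the grey band marks less than 2-fold and the dotted lines are the medians of all genes tested. In T cells all 5 points lie above the band, from 1.04 to 4.48, whereas in DCs Ube2l6 lies below it at -2.44, Herc6 above it at 2.03, and the other members inside it.

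The log2 ratio was higher in T cells than in DCs for every member. The difference was 3.92 for Ube2l6 (interval 3.75 to 4.08), 3.69 for Usp18 (3.34 to 4.03), 2.97 for Isg15 (2.76 to 3.18) and 1.73 for Uba7 (1.52 to 1.93). For Herc6 it was 0.54, with an interval from -0.01 to 1.10 that included 0. Isg15, Uba7 and Ube2l6 had ratios below 0 in DCs and above 0 in T cells, which 27.8% of the 9388 genes tested in both cell types did. Herc6 was the member called higher in both cell types, as were 5.41% of those genes, and Ube2l6 was called lower in DCs and higher in T cells, as were 6.74%. Length-centred, the difference was 4.22 for Isg15, 2.73 for Ube2l6 and 2.59 for Usp18. With 1 library per group, these differences were not tested against replicate error.

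Other interferon-stimulated genes gave a setting for this pattern. The list holds 43 genes, of which 42 were matched, and none of the 5 members. In T cells 31 of 41 tested were called higher, 0 lower and 10 neither, with a median log2 ratio of 1.55, where 18.3% of all genes were called higher and 25.4% lower. In DCs 25 of 42 were called higher, 7 lower and 10 neither, where 30.2% of all genes were called higher and 41.8% lower, and their median was 1.79 against -0.68 for the conjugation genes. Of the 41 tested in both cell types, 21 were called higher in both, against 5.41% of all genes, among them Irf7, a transcription factor that amplifies interferon production, with log2 ratios of 2.17 in DCs and 2.09 in T cells. The pattern of Ube2l6, lower in DCs and higher in T cells, was shared by 4 of the 41 (9.76%, against 6.74% of all genes): Cmpk2, Ifi35, Oas1a and Oas1g. Ifi35, a regulator of interferon signalling, had log2 ratios of -1.66 in DCs and 1.51 in T cells, and Oas1a, a sensor of double-stranded RNA, had -1.84 and 4.20.

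**Figure D3:**
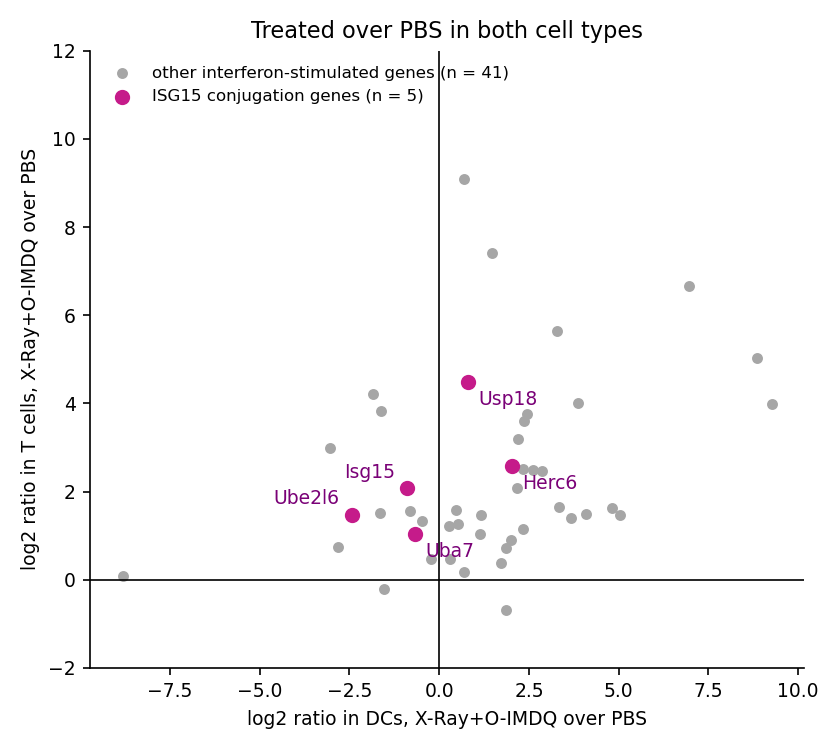
Each point is a gene, with the log2 ratio of treated over PBS in DCs on the x axis and in T cells on the y axis; grey points are 41 other interferon-stimulated genes, with a library at 0 counts set to 3. The 5 conjugation genes all lie above 0 for T cells, with Isg15, Uba7 and Ube2l6 left of 0 for DCs, where 9 of the 41 other genes also lie with a T cell ratio above 0.

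Levels of the members relative to each other within a library do not depend on a scaling factor per library. They are not free of effects that differ with gene length, so changes of these ratios in DCs are also given relative to genes of each member's own length, an alternative chosen after seeing the data and called length-centred. The Usp18 to Isg15 ratio of FPKM was 0.154 in PBS DCs, 0.495 in treated DCs, 0.0425 in PBS T cells and 0.225 in treated T cells. The protease was thus higher relative to the modifier with treatment, by 3.22-fold in DCs (interval 2.78 to 3.73) and 5.29-fold in T cells (4.16 to 6.72). The length-centred change in DCs was 11.0-fold in the same direction. The Ube2l6 to Isg15 ratio was 1.14 in PBS DCs, 0.389 in treated DCs, 1.08 in PBS T cells and 0.711 in treated T cells. The E2 was lower relative to the modifier with treatment, by 2.92-fold in DCs (2.52 to 3.38) and 1.52-fold in T cells (1.36 to 1.70). The length-centred change in DCs had the opposite direction, with Ube2l6 1.32-fold higher relative to Isg15, so the DC direction was not settled. In T cells the length-centred change was 2.14-fold lower. In PBS T cells the interval of this ratio, from 0.975 to 1.197, included equal levels.

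The E1 and E3 differed between the cell types on the same scale. The Uba7 to Isg15 ratio was 0.0737 in PBS DCs and 0.0852 in treated DCs, a 1.16-fold difference whose interval, 0.979 to 1.37, included no change, while the length-centred difference was 2.02-fold. In T cells it went from 0.235 with PBS to 0.114 with treatment, 2.05-fold lower (1.82 to 2.32). The Herc6 to Isg15 ratio was 0.00866 in PBS DCs and 0.0658 in treated DCs, 7.59-fold higher (6.10 to 9.45). In T cells it was 0.00608 with PBS and 0.00856 with treatment, with an interval of the change, 0.994-fold to 1.996-fold, that included none. Herc6 was 22.2-fold higher relative to Ube2l6 in the treated DC library (17.95 to 27.4), or 7.60-fold when length-centred, against 2.14-fold in T cells (1.52 to 3.01).

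The order of levels within a library changed accordingly. In PBS DCs it ran from Ube2l6 and Isg15 through Usp18 and Uba7 to Herc6, and in treated DCs from Isg15 through Usp18, Ube2l6 and Uba7 to Herc6. In PBS T cells Ube2l6 and Isg15 were followed by Uba7, Usp18 and Herc6, and in treated T cells Isg15 led Ube2l6, Usp18, Uba7 and Herc6. Usp18 lay 5.52-fold below Uba7 in PBS T cells and was 1.97-fold above it in treated T cells.

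**Figure D4:**
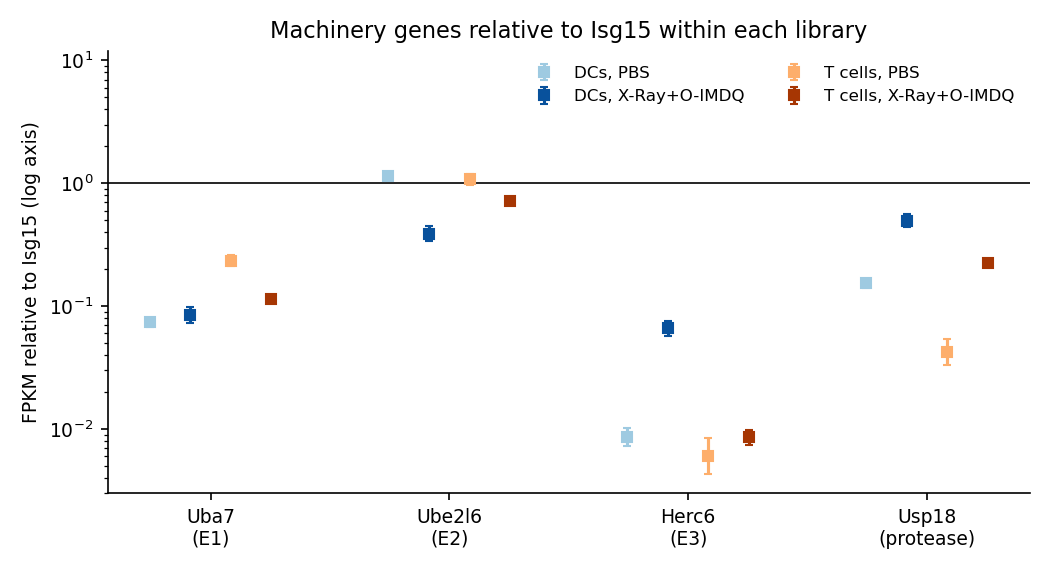
FPKM of the E1, E2, E3 and protease genes divided by the FPKM of Isg15 in the same library (log axis), with 95% counting intervals; the line marks equal levels. Usp18 is higher relative to Isg15 in the treated library of both cell types (0.495 against 0.154 in DCs, 0.225 against 0.0425 in T cells), and Ube2l6 is lower, a direction that turns in DCs when each gene is read against genes of its own length.

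Between cell types, the PBS libraries showed higher conjugation genes in DCs. Of the 5 members 4 were called higher in PBS DCs than in PBS T cells: Usp18 by 11.1-fold (8.87 to 14.1), Herc6 by 4.38-fold (3.08 to 6.36), Ube2l6 by 3.23-fold (3.05 to 3.43) and Isg15 by 3.07-fold (2.77 to 3.41). Uba7 had a log2 ratio of -0.05 (-0.18 to 0.08), which ranged from -0.58 to 0.35 over the scalings tried and so changed sign. Of the 11364 genes tested, 25.6% were called higher in DCs and 34.8% lower. With scaling by total counts these shares were 19.1% and 43.8%, and the median over all genes moved from -0.17 to -0.70, while the same 4 members were called. The counts come from separate tables of the cell types, and cell type and table cannot be told apart.

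In the treated libraries the order was different. Ube2l6, Uba7 and Isg15 were called lower in DCs than in T cells, by 4.57-fold (4.15 to 5.04), 3.35-fold (2.99 to 3.77) and 2.50-fold (2.25 to 2.78). Herc6 was called higher in treated DCs, by 3.07-fold (2.60 to 3.64), a call that was lost at a log2 ratio of 0.97 with scaling by total counts. The call of Isg15 was lost at a log2 ratio of -0.90 when ratios were centred on the median of all genes. Length-centred, the log2 ratios were -2.54 for Isg15, -1.40 for Uba7 and -1.37 for Ube2l6, so the order among these genes was not kept. Usp18 had a log2 ratio of -0.18 (-0.30 to -0.06) and ranged from -0.83 to 0.70 over the scalings, so its sign was not settled. Of the 10606 genes tested, 31.1% were called higher in treated DCs and 43.4% lower, with a median of -0.43, which scaling by total counts moved to -1.07. These comparisons use the same 4 libraries as the comparisons of treatment and are not separate evidence.

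Other genes of the ISG15 pathway were listed by role: the further ligases Trim25 and Arih1, proteases reported to act on ISG15 (Usp2, Usp5, Usp13, Usp14 and Usp16), the partners of USP18 (Ifnar1, Ifnar2, Stat2 and Skp2) and the LFA-1 chains Itgal and Itgb2. In T cells 5 of 12 tested were called higher and 0 lower, with a median log2 ratio of 0.59, and in DCs 4 were called higher and 5 lower, with a median of -0.46. The DC counts are near the shares over all genes, 30.2% higher and 41.8% lower, and in T cells those shares were 18.3% and 25.4%. Trim25, an interferon-induced ligase for ubiquitin and ISG15, was higher in both, by 3.28-fold in DCs and 2.07-fold in T cells. Usp14, a proteasome-bound deubiquitinase, was 2.12-fold lower in treated DCs and 3.38-fold higher in treated T cells, and Usp5, which takes apart free ubiquitin chains, was 5.94-fold lower and 5.76-fold higher.

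The receptor partners of USP18 moved differently in DCs and T cells. Ifnar2, the subunit that USP18 binds, was 3.88-fold lower in treated DCs, and Ifnar1 was 2.18-fold lower. In T cells their log2 ratios were 0.52 and 0.66, and neither was called. Stat2, which brings USP18 to the receptor, was 3.26-fold higher in DCs and had a log2 ratio of 0.37 in T cells. Itgal, a chain of the LFA-1 receptor for free ISG15, was 5.12-fold higher in treated DCs and had a log2 ratio of 0.14 in T cells, where it was abundant in both libraries at 10692 and 11904 counts.

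Of the genes of interferon signalling, 2 of 18 tested were called higher and 1 lower in T cells, and 7 higher and 4 lower in DCs, with medians of 0.49 and 0.55. Over all genes 18.3% and 25.4% were called higher and lower in T cells, above both counts, and 30.2% and 41.8% in DCs. Irf9, a part of the complex that drives interferon-stimulated genes, was 2.92-fold higher in treated T cells and had a log2 ratio of -0.82 in DCs. Ifng, the interferon of T and NK cells, had a log2 ratio of 0.75 in T cells, where it was not called, and went from 0 to 185 counts in DCs, where it was called higher. Transcripts of T and NK cell markers in the DC libraries are given above, and their part in this rise was not tested. Ifnb1 had 1 count in treated DCs and 0 in the other 3 libraries, so its transcript was not detectable at this depth.

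Of 16 proteins reported as ISG15 targets whose genes were tested, 3 genes were called higher and 1 lower in T cells, and 7 higher and 3 lower in DCs, with medians of 0.35 and 0.20. The T cell count of higher genes is at the share over all genes (18.3%), and in DCs the shares over all genes were 30.2% higher and 41.8% lower. Eif2ak2, the antiviral kinase PKR, was 12.1-fold higher in T cells and 5.16-fold higher in DCs. The RNA sensor gene Ddx58 (RIG-I) was 2.75-fold and 3.76-fold higher. Becn1 and Ube2n, which act in autophagy and in chain-building by ubiquitin, were 4.65-fold and 3.62-fold lower in treated DCs and had log2 ratios of 0.31 and 0.59 in T cells. Transcript levels say nothing about how much of a target carries ISG15, which was not measured.

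The nearest 2 listed genes on each side of a member were read beside it. Of 10 such genes tested in both cell types, 5 had the signs of their member in both. Of all genes tested in both, 27.8% had ratios below 0 in DCs and above 0 in T cells, the signs of Isg15, Uba7 and Ube2l6, and 20.6% had ratios above 0 in both, the signs of Herc6 and Usp18. Perm1, 15.1 kb from Isg15, went from 232 counts to 0 in DCs and from 0 to 184 in T cells, and Plekhn1, on the same side, from 414 to 20 and from 10 to 176, the directions of Isg15. Agrn, 1.97 kb away on the other side, had 1 count in PBS DCs and 27 in treated DCs, a log2 ratio of 5.57 (2.97 to 10.9) opposite in sign to that of Isg15. Inka1, 0.163 kb from Uba7, went from 597 counts to 0 in DCs and from 97 to 321 in T cells, the directions of Uba7. Traip, 3.24 kb away on the other side, was called lower in both. Gm20661, which overlaps Uba7, was at 0 counts in all 4 libraries. Serping1, the C1 inhibitor gene, 23.4 kb from Ube2l6, went from 633 counts to 0 in DCs and from 11 to 108 in T cells, the directions of Ube2l6, while Timm10 had log2 ratios of -1.34 and -0.26. Ppm1k, 45.5 kb from Herc6, had log2 ratios of 0.64 in DCs and 1.08 in T cells, the signs of Herc6, while on the other side Pyurf was called lower in both, and Lancl2 went from 478 to 17 counts in DCs and from 1 to 20 in T cells. Of the neighbours of Usp18, Pex26 and Tuba8 were tested in T cells only, and each had 0 counts in 1 of the T cell libraries.

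Likeness of pattern was measured as the distance between log2(CPM + 1) values over the 4 libraries, each gene centred on its own mean, among 11560 genes. Here CPM was scaled by TMM over the 4 libraries in place of the total count. The genes nearest to Isg15 were Acaa2 (distance 0.23), Usp14 (0.27) and Slfn1 (0.31), and those nearest to Ube2l6 were Dnal4 (0.22), Zkscan8 (0.25) and Hdhd2 (0.31). The genes nearest to Herc6 were Cep350 (0.22), AU041133 (0.22) and Cep170 (0.27), and Tulp2, Champ1 and Mxd1 lay nearest to Uba7, at 0.16 to 0.20. Usp18 had no gene as close, with Elp6 at 0.56, Zfp87 at 0.59 and Cd93 at 0.70. Between members the closest pair was Ube2l6 and Isg15 at 1.22 and the farthest Herc6 and Ube2l6 at 3.59. The named genes were picked as the nearest of all genes compared. Their being closer than other members was therefore fixed by the choice and says nothing of the members. All distances rest on 4 libraries that differ in cell type as well as treatment, and Tulp2 had at most 47 counts in any of them. Zkscan8 and Hdhd2 had 3 and 5 counts in treated DCs.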

How the data were processed

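RNA extraction, mRNA libraries and sequencing were done by BGI, per the labels' protocols. Build GRCm39 and the tools RSEM 1.2.12, HISAT2 2.0.4, R 3.3.1 and DESeq2 1.24.0 are listed, per the submitters' processing notes, with no role for each. The deposited tables hold raw read counts per gene as whole numbers, and FPKM that the authors scaled to the listed gene length and the column total, per the file headers; recomputing FPKM gave a relative difference of at most 2.04e-07. Each column was assigned by the library number in the sample's description, although the titles number the PBS samples differently. Each table holds 1 further PBS library that matched no sample, so 4 columns were not used here, and the spread between PBS libraries was not measured.

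TMM factors came from edgeR 4.0.16 (R 4.3.3) for each pair of libraries compared, and intervals from SciPy 1.17.1. The interval is the Clopper-Pearson 95% interval of one library's share of the summed counts; differences between cell types and changes in within-library ratios have Wald intervals. A library at 0 entered at 3 counts, a floor per library. The 51 listed genes without a symbol were not tested. The method was tested on simulated data. Those were Poisson counts with known folds set for some genes, without length effects or spread between mice, so they do not cover these.

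The 5 members and the 6 gene lists and 11 marker lists were chosen with earlier results of these data known. Named genes were the members, list genes on which a count or direction turns, those of the nearest 2 genes on each side that were tested, and the 3 nearest by pattern. Left out of the latter were mitochondrial and ribosomal protein genes, antigen receptor segments and unnamed gene models. Alternatives were total-count CPM, DESeq2 1.42.0 size factors, upper-quartile scaling, the deposited FPKM, TMM over 4 libraries or without some gene classes, median centring, other count filters, 1.5-fold and 4-fold thresholds and log2(CPM + 1). Centring on genes of similar length was chosen after seeing the data. Promoter sequences are RefSeq's (GRCm38.p6).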

Additional observations from a re-analysis of the deposited data

Results flagged for a closer look

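For 3 of the 5 genes the ratio of treated over PBS was below 1 in DCs and above 1 in T cells, a pair of signs that 27.8% of all genes tested in both had. The log2 ratio in T cells minus that in DCs was 2.97 for Isg15, 1.73 for Uba7 and 3.92 for Ube2l6. All 3 were called higher in T cells, but Ube2l6 was the one called lower in DCs, where Isg15 and Uba7 were within 2-fold. Behind each group stands 1 library. The difference was not tested against replicate error, and the marker sums and the genes lost in the treated DC library, given with the depth of the libraries, moved with it; their part was not tested.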

How the results depend on the processing

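The members' calls under other settings are counts out of 5. In DCs, where 2 were called, a 1.5-fold threshold called 5, where it called 36.0% of all genes higher and 46.7% lower. Centring on genes of similar length, an alternative chosen after seeing the data, called 4, and its shares over all genes are not given here. At a 4-fold threshold 3 were called in T cells against 5, 2 between the PBS libraries against 4, and 1 between the treated libraries against 4. Other settings kept each count within 1.5 times. Of 245 single values under other settings 179 lay inside the main counting interval and 64 outside. The other 2 took the sign opposite to a main value of 2-fold or more. Both are changes of within-library ratios in DCs under centring on genes of similar length: Ube2l6 over Isg15 went from a log2 change of -1.55 to 0.40, and Usp18 over Herc6 from -1.24 to 0.14. Sign changes of main values below 2-fold are among the 64. These were Uba7 between the PBS libraries, Usp18 between the treated libraries, and Herc6 over Isg15 in T cells (0.49 to -0.07). The windows near the lengths of Isg15 and Ube2l6 had median log2 ratios of 0.69 and -1.25. A 4-fold threshold called 18.6% of all genes higher in DCs in place of 30.2%, and 9.07% in T cells in place of 18.3%. Between the PBS libraries it called 15.4% higher and 23.3% lower, and between the treated libraries 21.7% and 33.8%. Requiring at least 20 counts in both libraries called 32.9% higher and 26.2% lower in DCs, in place of 30.2% and 41.8%, and 15.5% higher and 15.4% lower in T cells, in place of 18.3% and 25.4%. No paired analysis was possible because each group has 1 library, so leaving out a replicate was not possible either. The Herc6 ratio in T cells is the least precise, resting on 40 counts.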

Other observations

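The ubiquitin genes and enzymes that parallel the ISG15 system were read as a set of 11, 6 called higher and 4 lower in DCs (median log2 ratio 1.09) and 0 higher and 1 lower in T cells (median 0.25), where the shares over all genes were 30.2% and 41.8% in DCs and 18.3% and 25.4% in T cells. In T cells the E1 gene Uba1 and the E2 gene Ube2l3, the relatives of Uba7 and Ube2l6, had log2 ratios of 0.35 and -0.04. In DCs Ube2l3 had a log2 ratio of 0.13, where Ube2l6 was 5.43-fold lower. Ubb, a polyubiquitin gene, went from 115497 counts with PBS to 5795 with treatment in DCs, 11.3-fold lower, and had a log2 ratio of 0.29 in T cells. Ubiquitin genes share repeated coding sequence, so how reads were divided among them is uncertain.

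Of 20 genes of other ubiquitin-like systems (NEDD8, SUMO, UFM1, URM1, ATG12, FAT10 and FAU), 4 were called higher and 4 lower in DCs (median -0.08) and 2 higher and 2 lower in T cells (median 0.00). Over all genes the shares higher and lower were 30.2% and 41.8% in DCs and 18.3% and 25.4% in T cells, above these counts. Urm1, a modifier that also serves tRNA thiolation, was higher in both, by 3.27-fold in DCs and 3.29-fold in T cells. Ubd, the interferon-inducible modifier FAT10, had the pattern of Ube2l6, with 84 counts in PBS DCs and 4 in treated DCs, and 5 and 27 in T cells. Of all genes tested in both cell types, 6.74% had this pattern of calls. Sumo3 was 7.998-fold lower in treated DCs and had a log2 ratio of -0.72 in T cells.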
